A study of Triticum aestivum with 24 samples.

Results

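CAT1, TaPrx1 and PER1 are 3 wheat genes grouped here, by their names, as a catalase and peroxidases, enzymes that break down or use hydrogen peroxide. Their probe sets were found by gene name: every probe set on the array whose only annotated gene was 1 of the 3, by symbol or synonym, was taken. There were 8 such probe sets among 61290 on the array, of which 61115 represent wheat transcripts. CAT1 had 2, TaPrx1 had 4 and PER1 had 2, and they are named here by gene and letter, CAT1-a and CAT1-b, TaPrx1-a to TaPrx1-d, and PER1-a and PER1-b. The plots give the array's own identifier beside the letters of all but CAT1-b, which is in no plot. The annotation lists TaPrx1 and PER1 under the symbols LOC606328 and LOC543108, with those names as synonyms. CAT1-a, TaPrx1-a and PER1-a are called the lead probe sets. After the dimmest 40% of wheat probe sets had been left out, 6 of the 8 were tested, and CAT1-b and PER1-b lay below that filter.

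The arrays measured total RNA from the second leaf sheath of wheat seedlings, at the place where larvae of the Hessian fly feed. Infested Molly, a line with the resistance gene H13 in which the interaction is incompatible, was sampled at 6, 12 and 24 h after the fly eggs hatched. Infested Newton, a susceptible line with a compatible interaction, was sampled at the same 3 times. Uninfested sheaths of Molly and of Newton were sampled at 12 h, and each of the 8 groups had 3 arrays, so that 24 arrays were read in all. Plants of both lines were grown under 1 chamber regime, and the infested ones received eggs at the 2-leaf stage. Uninfested sheaths were taken at 12 h alone, so infestation and sampling time cannot be told apart in the comparisons at 6 and 24 h. Within a line, all comparisons with uninfested sheaths use the same 3 arrays and are therefore not independent of each other. What else distinguishes Molly from Newton besides H13 is not given in the sources used here, and how many plants were pooled for an array is not given either.

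Hydrogen peroxide is formed in leaves by photorespiration and other oxidases, and plants also make it at sites of attack by pathogens and insects. Catalases, which sit mainly in peroxisomes, split it into water and oxygen without another substrate. Peroxidases use it to oxidise a second compound, and the secreted plant peroxidases take part in cross-linking phenolics, lignin and proteins of the cell wall. The tables used here give TaPrx1 and PER1 a name only, and do not say whether they are peroxidases or of which class. In barley, the name PER1 has been given to a peroxiredoxin of seeds, a thiol enzyme that reduces peroxides.

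The values are MAS5 signals, a brightness per probe set on a linear scale, and every array had the same trimmed mean of 500 units. Summed signal was 45362600 to 47970500 per array, and log2 signal correlated at r = 0.951 to 0.974 within groups, against 0.878 to 0.966 between groups. The 4 green leaf probe sets (PRK, OEE1 and OEE2) had group means of 3500 to 18300, while 14 of 17 seed storage probe sets stayed within the range of the array's 8 tag controls, probe sets with no matching wheat transcript, whose signal reached 85. The remaining 3 were one each of gli-2, abu-7 and the avenin-like gene ALP, the last with group means of 3660 to 4950. The 18S rRNA control was lower on infested than on uninfested arrays of its line, by 0.97 to 2.1 on the log2 scale over the 6 comparisons (SE 0.36). The part of 18S rRNA in the results below was not tested beyond a fit with its log2 signal as a covariate. In these bulk samples, fewer cells of a type and less RNA per cell cannot be told apart.

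Log2 signal was fitted with limma across all 36669 tested probe sets, and p-values were adjusted by the Benjamini-Hochberg method within each comparison. A change is called, and described as a rise or a fall, where the adjusted p is under 0.05. By that rule 37.8% of tested probe sets were called in infested against uninfested Molly at 6 h, 34.1% at 12 h and 24% at 24 h. In Newton the shares were 15.2% at 6 h, 18.6% at 12 h and 30.5% at 24 h. Of the 6 tested probe sets of the 3 genes, 3 were called in Molly at 6 h, 0 at 12 h and 5 at 24 h. In Newton 0 were called at 6 h, 0 at 12 h and 1 at 24 h. Beside each count of 0, the smallest unadjusted p among the 6 was 0.027 in Molly at 12 h, 0.14 in Newton at 6 h and 0.17 in Newton at 12 h. Of the calls in Molly, 3 at 6 h and 4 at 24 h were of probe sets of TaPrx1 alone. The counts therefore do not describe the 3 genes as a group, and the results are given gene by gene.

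CAT1, the catalase, was higher at 24 h in both lines and was near its uninfested signal at 12 h. In infested Molly the lead probe set read 183, 262.5 and 175 units at 6 h, 111, 171 and 111 units at 12 h, and 313, 305 and 505 units at 24 h. Uninfested Molly read 194, 108 and 88.8 units. All 3 Molly arrays at 24 h lay above every other Molly array, and the 6 h and 12 h arrays overlapped the uninfested ones. In infested Newton it read 137, 189 and 261 units at 6 h, 188, 155 and 118 units at 12 h, and 471, 305 and 409 units at 24 h. Uninfested Newton read 128, 148 and 190.0 units. The 6 arrays at 24 h, which spanned 305 to 505 units over both lines, did not overlap the other 18 arrays, which spanned 88.8 to 262.5 units.

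**Figure D1:**
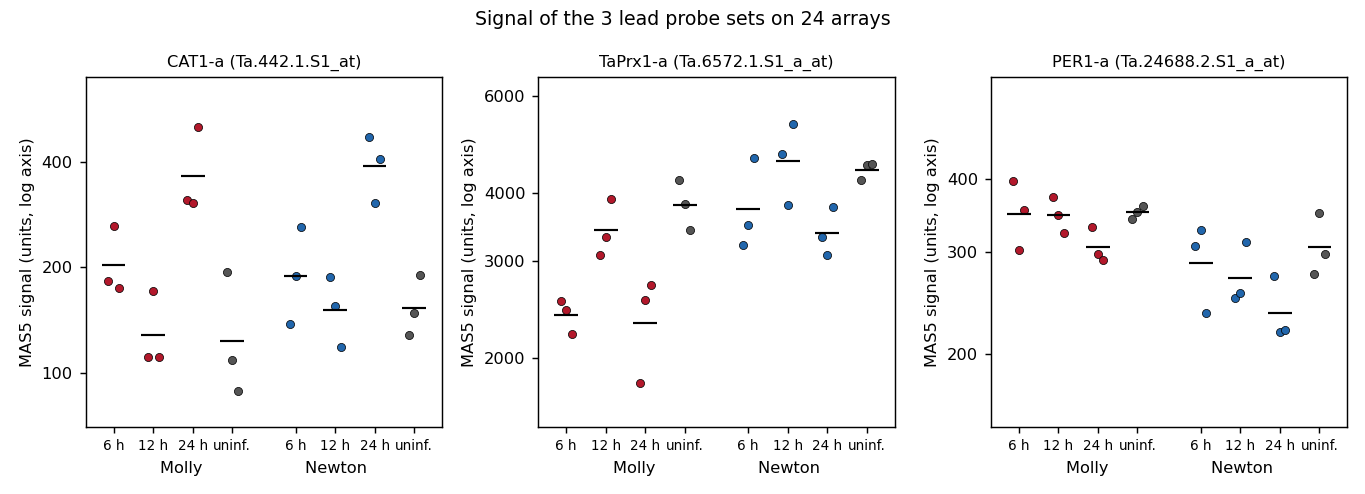
MAS5 signal (log axis) of the lead probe sets of CAT1, TaPrx1 and PER1 on each of the 24 arrays, by line and by time after egg hatch, with uninfested sheaths of each line (uninf.) at its right. Points are arrays and bars are geometric means of 3 arrays. CAT1 stands at 305 units or more on all 24 h arrays of both lines, TaPrx1 is at 2712 units or less on the Molly arrays at 6 and 24 h, and the PER1 arrays of infested Molly overlap those of uninfested Molly except at 24 h.

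CAT1 averaged 374 ± 113 units in infested Molly at 24 h and 130.4 ± 56.0 units in uninfested Molly (mean ± SD, n = 3 each). It rose 2.96-fold, a log2 change of 1.56 ± 0.30 (SE; limma adjusted p = 0.00076), where 11.9% of tested probe sets rose. In Newton it averaged 395 ± 84.0 units at 24 h and 155 ± 31.8 units in uninfested sheaths (mean ± SD, n = 3 each). It rose 2.54-fold, a log2 change of 1.34 ± 0.30 (SE; limma adjusted p = 0.002), where 16.7% of tested probe sets rose. Both rises were called in all 15 alternative settings, with log2 changes of 1.25 to 1.89 in Molly and 1.11 to 1.89 in Newton. The 18S rRNA control changed by -0.97 in Molly and by -2.1 in Newton at that time, and with it as a covariate the CAT1 changes were 1.82 (limma adjusted p = 0.001) and 1.89 (limma adjusted p = 0.013). The summed signal of the 4 green leaf probe sets was 37910 to 46630 units in Molly at 24 h and 33230 to 38450 in uninfested Molly. In Newton it was 42040 to 48730 units at 24 h and 38640 to 43520 in uninfested sheaths, and its part in the CAT1 result was not tested.

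The rise of CAT1 was also measured between infested groups, without the uninfested arrays, although sampling time still differs there. From 12 h to 24 h the log2 change was 1.51 ± 0.30 in infested Molly (SE; limma adjusted p = 0.0015), where 16.7% of tested probe sets were called. In infested Newton it was 1.37 ± 0.30 (SE; limma adjusted p = 0.006), where 11.7% were called. Both were called in all 15 alternative settings. Between 6 h and 12 h CAT1 changed by -0.67 in infested Molly (95% interval -1.3 to -0.03, limma adjusted p = 0.24) and by -0.33 in infested Newton (95% interval -0.96 to 0.31, limma adjusted p = 0.73), where 5.04% and 2.5% of tested probe sets were called.

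At 6 and 12 h no CAT1 change against uninfested sheaths was called. In Molly at 6 h the log2 change was 0.72 (95% interval 0.09 to 1.35, limma adjusted p = 0.068). One uninfested Molly array, replicate 1 at 194 units, lay above the other 2, and without it this change was 1.05 (limma adjusted p = 0.012). With the 18S rRNA signal as a covariate it was 1.11 (limma adjusted p = 0.047), beside an 18S change of -1.48. In Molly at 12 h the change was 0.06 (95% interval -0.58 to 0.69), in Newton at 6 h 0.30 (95% interval -0.33 to 0.94) and in Newton at 12 h -0.02 (95% interval -0.65 to 0.61). The sign at 12 h depended on the setting in both lines.

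The other CAT1 probe set, CAT1-b, read 6.08 to 109 units over the 24 arrays and overlapped the range of the tag controls in every group. Its infested Molly arrays read 29.8 to 74.5 units and its uninfested ones 18.1 to 85.3. Its infested Newton arrays read 6.08 to 109 units and its uninfested ones 24.1 to 50.6. It was therefore not measured well enough to bear on the lead probe set, and without the filter on dim probe sets 0 of its 6 comparisons with uninfested sheaths were called in any of 11 settings each (lowest limma adjusted p = 0.27).

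TaPrx1, grouped with the peroxidases by its name, was lower in infested Molly at 6 h and at 24 h and was not called at 12 h. In infested Molly the lead probe set read 2543, 2452 and 2213 units at 6 h, 3084, 3324.5 and 3905 units at 12 h, and 1801, 2552 and 2712 units at 24 h. Uninfested Molly read 4226, 3819 and 3419 units. The 6 h and 24 h arrays all lay below the uninfested ones and below the 12 h ones, while the 12 h arrays overlapped the uninfested ones. In infested Newton it read 3219.5, 3498 and 4633.5 units at 6 h, 4699, 3797 and 5342 units at 12 h, and 3327, 3087 and 3767 units at 24 h. Uninfested Newton read 4219, 4500.4 and 4509.7 units. In Newton only the 24 h arrays lay wholly below the uninfested ones.

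At 6 h TaPrx1 averaged 2402 ± 171 units in infested Molly and 3822 ± 403 units in uninfested Molly (mean ± SD, n = 3 each), and it fell 1.59-fold. Its log2 change was -0.67 ± 0.15 (SE; limma adjusted p = 0.0016), where 19.5% of tested probe sets fell. At 24 h it averaged 2355 ± 487 units in infested Molly and fell 1.64-fold, a log2 change of -0.72 ± 0.15 (SE; limma adjusted p = 0.0018), where 12.1% of tested probe sets fell. Both falls were called in all 15 alternative settings, with log2 changes of -0.8 to -0.59 at 6 h and -0.83 to -0.53 at 24 h. At 12 h the change was -0.15 (95% interval -0.47 to 0.17, limma adjusted p = 0.49). The 18S rRNA control changed by -1.48 at 6 h, -1.75 at 12 h and -0.97 at 24 h, and with it as a covariate the TaPrx1 changes were -0.68, -0.17 and -0.73.

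The other 3 TaPrx1 probe sets were read beside the lead one, since they share a gene and are not replicates of each other. At 6 h in Molly, TaPrx1-b read 6087, 5889 and 4907 units in infested sheaths, against 8916, 8402 and 7727 units in uninfested sheaths. Its log2 change was -0.57 (limma adjusted p = 0.0064). TaPrx1-c read 2039, 2068 and 1725 units in infested sheaths, against 3071, 2831 and 2587 units in uninfested sheaths. Its log2 change was -0.54 (limma adjusted p = 0.0094). In both the groups did not overlap. TaPrx1-d read 153, 173 and 142 units in infested sheaths, against 208, 259 and 166 units in uninfested sheaths, which overlap. It changed by -0.42 (limma adjusted p = 0.22), so 3 of 4 TaPrx1 probe sets fell at 6 h. Of the other 2 that did, both missed the threshold with the 18S rRNA covariate (TaPrx1-b -0.60, limma adjusted p = 0.05; TaPrx1-c -0.58, limma adjusted p = 0.059). TaPrx1-c also missed it without Molly 6 h replicate 3 (-0.46, limma adjusted p = 0.052).

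At 12 h in Molly none of the 4 TaPrx1 probe sets was called, and TaPrx1-d came nearest. It read 118, 139.7 and 151 units in infested sheaths, against 208, 259 and 166 units in uninfested sheaths, and the groups did not overlap. Its log2 change was -0.62 (95% interval -1.15 to -0.08, unadjusted p = 0.027, limma adjusted p = 0.073). That change was called in 3 of 15 alternative settings, which were quantile normalization (-0.76, limma adjusted p = 0.028), median centring (-0.73, limma adjusted p = 0.032) and the fit without uninfested Molly replicate 3 (-0.78, limma adjusted p = 0.047).

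At 24 h in Molly all 4 TaPrx1 probe sets fell. TaPrx1-b read 4122, 5062 and 5597 units in infested sheaths and fell by 0.77 on the log2 scale (limma adjusted p = 0.0012). TaPrx1-c read 1551.5, 1994 and 2032 units and fell by 0.61 (limma adjusted p = 0.0071). TaPrx1-d read 97.5, 109 and 183 units, of which the last lay within the uninfested range, and fell by 0.73 (limma adjusted p = 0.044). The call of TaPrx1-c was lost without Molly 24 h replicate 1 (-0.49, limma adjusted p = 0.056). That of TaPrx1-d was lost in 8 of 15 settings, among them without Molly 24 h replicate 1 (-0.56), Molly 24 h replicate 2 (-0.64), uninfested Molly replicate 1 (-0.73) or uninfested Molly replicate 2 (-0.58). It was also lost with the 18S rRNA covariate (-0.48), with the replicate block (limma adjusted p = 0.055), with no filter and with only the groups compared in the fit.

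**Figure D2:**
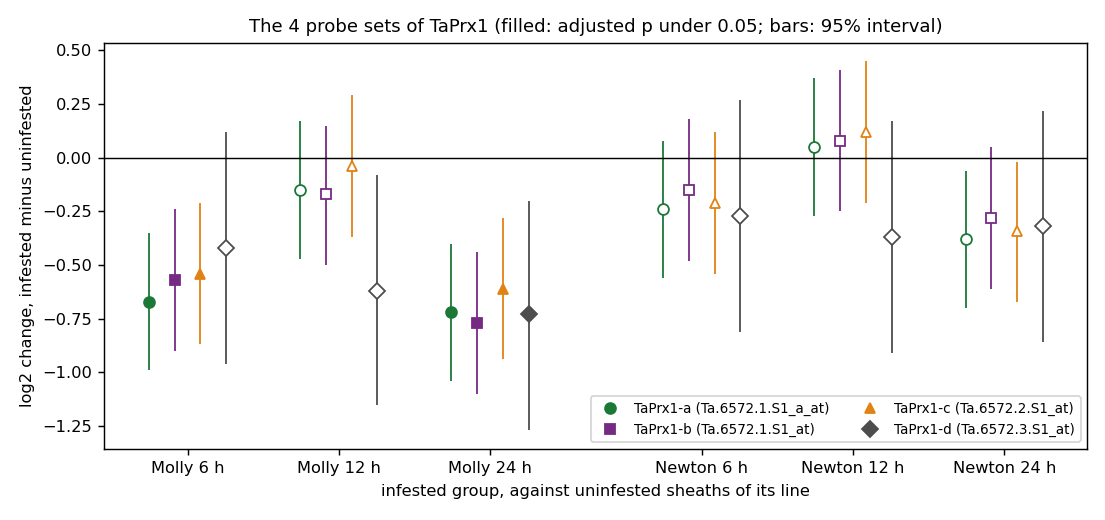
Log2 change in signal, infested minus uninfested sheaths of the same line, for the 4 TaPrx1 probe sets at each time in Molly and Newton, with 95% intervals from limma. Filled symbols have an adjusted p under 0.05. In Molly 3 of 4 symbols are filled at 6 h, 0 at 12 h and 4 at 24 h, and in Newton 0 are filled at any time.

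Between 12 h and 24 h in infested Molly, the lead TaPrx1 probe set fell by 0.56 on the log2 scale (limma adjusted p = 0.015), and 3 of 4 TaPrx1 probe sets fell, where 8.06% of tested probe sets did. The call of the lead probe set was lost without Molly 12 h replicate 3 (-0.47, limma adjusted p = 0.082), without Molly 24 h replicate 1 (-0.38, limma adjusted p = 0.084) and with only the groups compared in the fit (limma adjusted p = 0.072). Between 6 h and 12 h it changed by 0.51 (95% interval 0.19 to 0.83, limma adjusted p = 0.058), with all 3 arrays at 12 h above those at 6 h. That change was called in 4 of 15 alternative settings, namely quantile normalization (limma adjusted p = 0.049), the 60% filter on dim probe sets (0.044), only the groups compared in the fit (0.029) and the replicate block (0.049). In infested Newton the changes were 0.29 between 6 h and 12 h (limma adjusted p = 0.43) and -0.43 between 12 h and 24 h (limma adjusted p = 0.071), the second of which was called without Newton 12 h replicate 2 (-0.57, limma adjusted p = 0.019).

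In Newton 0 of 4 TaPrx1 probe sets were called against uninfested sheaths at 6, 12 or 24 h in the limma fit. Of all tested probe sets, 15.2%, 18.6% and 30.5% were called there. At 24 h the lead TaPrx1 probe set averaged 3394 ± 345 units in infested sheaths and 4409.6 ± 165 units in uninfested sheaths (mean ± SD, n = 3 each), a log2 change of -0.38 (95% interval -0.7 to -0.06, unadjusted p = 0.022, limma adjusted p = 0.066). It was called in 1 of 15 alternative settings, with only the groups compared in the fit (limma adjusted p = 0.0089). Its changes were -0.24 at 6 h (95% interval -0.56 to 0.08) and 0.05 at 12 h (95% interval -0.27 to 0.37). The other 3 probe sets changed by -0.28, -0.34 and -0.32 at 24 h, with unadjusted p of 0.092, 0.041 and 0.23.

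PER1 was called by limma in 0 of 17 comparisons by its lead probe set, and 3 of them had an unadjusted p under 0.05. From 2.5% to 37.8% of tested probe sets were called in these comparisons, which share arrays and are not independent of each other. In infested Molly it read 398, 302 and 355 units at 6 h, 374, 347 and 323 units at 12 h, and 332, 298 and 291 units at 24 h. Uninfested Molly read 342, 352 and 360.05 units. The 24 h arrays lay below the uninfested ones, but the log2 change was -0.2 (95% interval -0.51 to 0.11, limma adjusted p = 0.37). At 6 h and 12 h the changes were -0.01 (95% interval -0.32 to 0.30) and -0.02 (95% interval -0.32 to 0.29).

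In infested Newton PER1 read 307, 327 and 236 units at 6 h, 249.6, 255 and 312 units at 12 h, and 273, 218 and 220.25 units at 24 h. Uninfested Newton read 275, 351 and 297 units. The 24 h arrays lay below all uninfested ones, the nearest pair being 273 and 275 units. PER1 averaged 237 ± 30.8 units at 24 h and 308 ± 39.0 units in uninfested sheaths (mean ± SD, n = 3 each), a log2 change of -0.38 (95% interval -0.68 to -0.07, limma adjusted p = 0.059). That change was called in 4 of 15 alternative settings, 1 of which left out Newton 24 h replicate 1 (-0.48, limma adjusted p = 0.031), and over all 15 it was -0.59 to -0.28. At 6 h and 12 h the changes were -0.09 (95% interval -0.4 to 0.21) and -0.18 (95% interval -0.48 to 0.13).

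The other PER1 probe set, PER1-b, separated infested from uninfested Molly at every time, but at signals inside the range of the tag controls over all arrays. In infested Molly it read 9.12, 19.7 and 6.17 units at 6 h, 11.7, 13.9 and 23.0 units at 12 h, and 12.8, 11.9 and 14.8 units at 24 h. Uninfested Molly read 62.3, 77.4 and 69.4 units. The 9 infested Molly arrays, at 6.17 to 23.0 units, did not overlap the 3 uninfested ones. In Newton infested sheaths read 33.1 to 141 units (median 84.1, 9 arrays) and uninfested ones 45.8, 71.6 and 124 units, which overlap. Over all arrays the tag controls had a median of 17.2 units and reached 85. On the uninfested Molly arrays their median was 13.6 units and they reached 75.7, so PER1-b stood well above that median there. On the infested Molly arrays their medians were 16.4, 25.8 and 17 units at 6, 12 and 24 h. Since the infested Molly values lay at that level, no fold change is given.

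Since PER1-b lay below the filter, a limma fit without the filter was added after its values had been seen. In that fit the infested Molly sheaths were below the uninfested ones with limma adjusted p of 0.00023 at 6 h, 0.0027 at 12 h and 0.0019 at 24 h. This held in 11 of 11 settings at 6 h and at 24 h, and in 10 of 11 at 12 h, where the call was lost with the 18S rRNA covariate (limma adjusted p = 0.072). In Newton the limma adjusted p were 0.58, 0.96 and 0.99 at the same times. The Molly response minus the Newton response had limma adjusted p of 0.0026 at 6 h, 0.051 at 12 h and 0.031 at 24 h. It was called in 17 of 17 settings at 6 h, in 3 at 12 h and in 7 at 24 h. All of its Molly arrays lay within the range of the tag controls over all arrays, so the size of its fall is not known. The lead probe set was not called in Molly at these times, and why the probe sets differ was not tested.

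**Figure D3:**
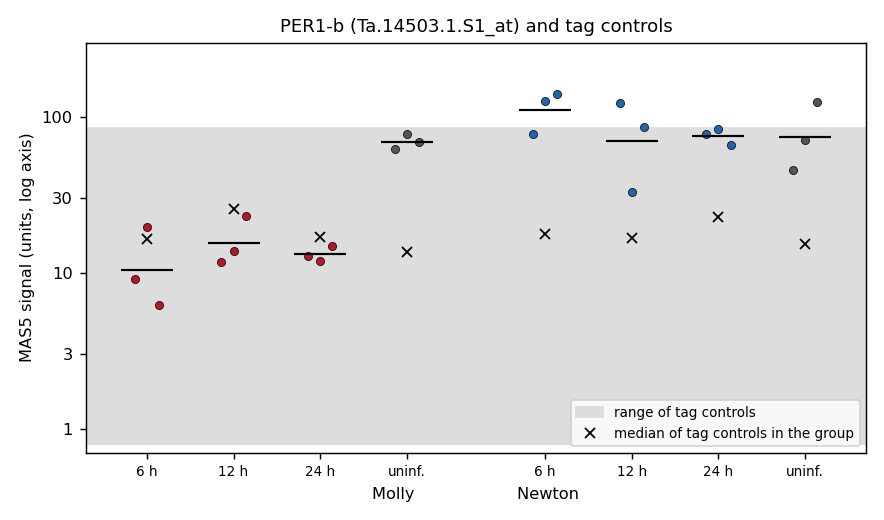
MAS5 signal (log axis) of the dim PER1 probe set PER1-b on each of the 24 arrays, with geometric means as bars. The grey band is the range of the 8 tag controls over all arrays, up to 85 units, and crosses are the tag controls' median in each group. Infested Molly arrays read 6.17 to 23.0 units and uninfested Molly arrays 62.3 to 77.4 units, all inside the band.

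The lines were compared in their responses, that is, the infested minus uninfested change in Molly less that in Newton. None of the 6 tested probe sets was called at 6, 12 or 24 h by limma, where 23.4%, 25.1% and 17.4% of tested probe sets were. The lowest unadjusted p among them belonged to TaPrx1: the lead probe set differed by -0.43 at 6 h (95% interval -0.88 to 0.02, limma adjusted p = 0.17), -0.21 at 12 h (95% interval -0.66 to 0.25) and -0.33 at 24 h (95% interval -0.79 to 0.12, limma adjusted p = 0.33). TaPrx1-b differed by -0.49 at 24 h (95% interval -0.96 to -0.03, limma adjusted p = 0.14). It was the only 1 of these 18 values with an unadjusted p under 0.05. The falls of TaPrx1 in Molly and the lack of a call in Newton are thus not shown to differ between the lines. CAT1 differed by 0.42 at 6 h (95% interval -0.48 to 1.31), 0.08 at 12 h (95% interval -0.82 to 0.97) and 0.22 at 24 h (95% interval -0.68 to 1.12). PER1 differed by 0.08, 0.16 and 0.18, with 95% intervals from -0.35 at the lowest to 0.61 at the highest.

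Without larvae the lines were not told apart by these genes. In uninfested Molly minus uninfested Newton, 0 of 6 probe sets were called by limma, where 3.4% of tested probe sets were, and the lowest unadjusted p among the 6 was 0.18. The log2 differences were -0.32 for CAT1 (95% interval -0.95 to 0.32), -0.21 for TaPrx1 (95% interval -0.53 to 0.11) and 0.20 for PER1 (95% interval -0.11 to 0.51), and the arrays of the lines overlapped for each lead probe set.

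Infested Molly was also set directly against infested Newton at each time, a comparison added after the values had been seen. The lead TaPrx1 probe set was lower in Molly by 0.64 on the log2 scale at 6 h (limma adjusted p = 0.003), and the arrays did not overlap. It was lower by 0.42 at 12 h (limma adjusted p = 0.044), where the arrays overlapped, and by 0.54 at 24 h (limma adjusted p = 0.012), where they did not. Of the 4 TaPrx1 probe sets, 2 were lower at 6 h, 1 at 12 h and 3 at 24 h, where 17.5%, 17.5% and 13% of tested probe sets were lower. The difference of the lead probe set was called in all 15 alternative settings at 6 h, in 7 at 12 h and in 12 at 24 h. At 12 h it was lost without Newton replicate 1 (-0.4), Newton replicate 3 (-0.3), Molly replicate 1 (-0.34) or Molly replicate 2 (-0.4). It was also lost there with no filter on dim probe sets (limma adjusted p = 0.063), with 1 variance prior for all probe sets (0.065), with only the groups compared (0.079) and with the 18S rRNA covariate (0.064). At 24 h it was lost without Molly replicate 1 (-0.36), without Newton replicate 3 (-0.47) and with only the groups compared.

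The lead probe sets of CAT1 and PER1 gave no call between the infested lines. The CAT1 differences were 0.10, -0.24 and -0.10 at 6, 12 and 24 h. PER1-a was higher in value on every Molly array than on every Newton array at 12 h and at 24 h, with log2 differences of 0.36 (95% interval 0.05 to 0.67, limma adjusted p = 0.071) and 0.38 (95% interval 0.07 to 0.68, limma adjusted p = 0.068). Each of these was called in 1 of 15 alternative settings (lowest limma adjusted p = 0.037 and 0.036). At 6 h the PER1-a difference was 0.28 (95% interval -0.02 to 0.59). The dim PER1-b went the other way, with every infested Molly array below every infested Newton array at 6, 12 and 24 h. In the fit without the filter its limma adjusted p were 3.3e-05, 0.0029 and 0.0011. Those Molly signals lay within the range of the tag controls.

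Ordered by mean signal of the lead probe set, CAT1 was highest in Newton at 24 h (395 units) and Molly at 24 h (374), which overlapped each other and stood clear of the rest. Molly at 6 h (207), Newton at 6 h (196), uninfested Newton (155), Newton at 12 h (154), Molly at 12 h (131) and uninfested Molly (130.4) followed, and each of these neighbours overlapped. TaPrx1 was highest in Newton at 12 h (4613 units), followed by uninfested Newton (4409.6), uninfested Molly (3822), Newton at 6 h (3784), Molly at 12 h (3438) and Newton at 24 h (3394). Neighbours in that order overlapped, and below them, without overlap, stood Molly at 6 h (2402) and Molly at 24 h (2355). PER1 spanned a narrow range of 352 units in Molly at 6 h to 237 units in Newton at 24 h, and all neighbours in its order overlapped.

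The pattern of each gene over the 8 groups was set against the other annotated probe sets, as a description over group means that share their arrays. Over these means the lead TaPrx1 probe set had r = 0.971 with TaPrx1-b, 0.992 with TaPrx1-c and 0.59 with TaPrx1-d. Among 961 probe sets of other genes, the highest r was 0.974 for LOC606370, followed by 0.961 for LOC543186 and 0.956 for LOC543004. For CAT1, among 964 probe sets, they were LOC542814 (r = 0.94), LOC100049038 (0.884) and LOC543106 (0.869). For PER1 they were LOC543015 (r = 0.911), LOC543357 (0.908) and LOC778385 (0.896). The tables used here give these genes a number and no role.

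The 3 genes were placed among other redox genes on the array that were found by symbol or synonym. Redox genes listed without such a name may be missing. The list had 15 probe sets, of which 13 were tested. Besides CAT1, TaPrx1 and PER1, it held GSTZ1, a glutathione transferase of the zeta class, lgul, a lactoylglutathione lyase that detoxifies methylglyoxal, PCS1, a phytochelatin synthase that makes metal-binding peptides from glutathione, and the thioredoxin gene Trx-M. Of these 13, 3 rose and 4 fell in Molly at 6 h, where 18.3% of all tested probe sets rose and 19.5% fell. At 12 h 3 rose and 0 fell, beside 16.4% and 17.7% of all, and at 24 h 4 rose and 4 fell, beside 11.9% and 12.1%. In Newton 0 rose and 1 fell at 6 h, beside 8.64% and 6.54% of all. At 12 h 2 rose and 0 fell there, beside 10.8% and 7.76%, and at 24 h 2 rose and 2 fell, beside 16.7% and 13.8%. The median log2 change of the list was -0.24, -0.02 and -0.2 in Molly and -0.15, 0.02 and -0.31 in Newton at 6, 12 and 24 h, against 0.02, -0.01, -0.02, 0.06, 0.07 and 0.05 over all tested probe sets. The 3 genes make up 6 of the 13 tested probe sets, and TaPrx1 alone 4. Without the 3 genes, the other 7 had medians of 0.31, 0.43 and 0.29 in Molly and -0.09, 0.02 and -0.26 in Newton. Of those 7, 3 rose at each time in Molly, and 1, 0 and 0 fell. In Newton 0, 2 and 1 rose, and 1, 0 and 2 fell.

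**Figure D4:**
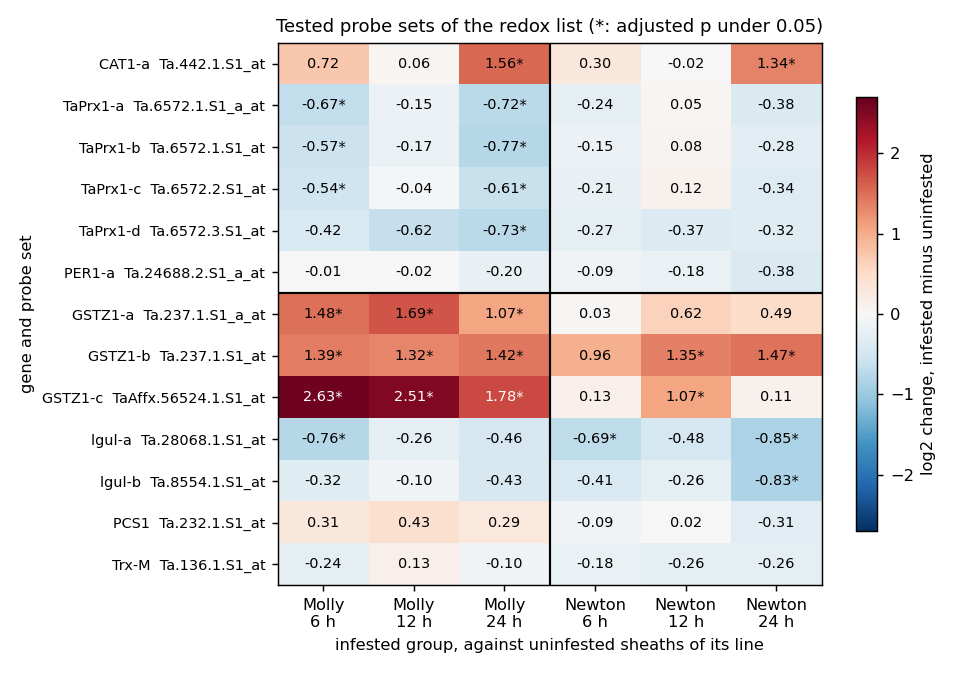
Log2 change in signal, infested minus uninfested sheaths of the same line, for the 13 tested redox probe sets (rows) in the 6 comparisons (columns). Colour and printed value give the change, a star marks an adjusted p under 0.05, and a line separates CAT1, TaPrx1 and PER1 from the other genes. CAT1 has stars at 24 h in both lines (1.56 and 1.34). In Molly, 3 of 4 TaPrx1 rows have stars at 6 h and all 4 at 24 h, and the rows of GSTZ1 have them at all 3 times.

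GSTZ1 accounted for the rises of the list in Molly other than that of CAT1. Its 3 probe sets rose at 6, 12 and 24 h, by 1.07 to 2.63 on the log2 scale. In Newton 0 of them rose at 6 h, 2 at 12 h and 1 at 24 h. The 3 probe sets did not give the same difference between the lines' responses. For GSTZ1-a the Molly response less the Newton response was 1.45, 1.07 and 0.59 at 6, 12 and 24 h (limma adjusted p = 0.0082, 0.043 and 0.32). For GSTZ1-b it was 0.42, -0.02 and -0.05 (limma adjusted p = 0.62, 0.98 and 0.97), and for GSTZ1-c it was 2.49, 1.44 and 1.67 (limma adjusted p = 3e-04, 0.016 and 0.0093). Of lgul, lgul-a fell by 0.76 in Molly at 6 h, and in Newton it fell by 0.69 at 6 h and by 0.85 at 24 h. The other probe set, lgul-b, fell by 0.83 in Newton at 24 h. PCS1 and Trx-M were not called in any of the 6 comparisons, with log2 changes of -0.31 to 0.43.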

How the data were processed

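The authors deposited intensity values per probe set for 24 arrays, on a linear scale, made with MAS5 per the submitters' processing notes; neither its version nor its settings are stated there or in the labels. The number of arrays limits the precision. Of 61290 probe sets, 175 control and reporter probe sets were set aside, and the 40% of the other 61115 with the lowest mean log2 signal were left out (signal 44.9 at that limit). The remaining 36669 were fitted as log2(signal) in limma 3.58.1 (R 4.3.3), all 24 arrays together and a mean for each group, with a variance prior that followed intensity, two-sided tests and Benjamini-Hochberg adjustment within each of 17 comparisons. The fit had 16 residual and 4.49 prior degrees of freedom, and it was tested on simulated data.

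Genes were named from the supplied platform annotation, which pairs 1273 probe sets with 1 gene (771 genes), and the RefSeq gene table, which held 770 of them. All members are described; redox genes were taken by name, and the 3 genes most alike by Pearson r of the 8 group means. The members, lists and tests were chosen with earlier results of these data known.

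The labels call infested replicates biological and only number uninfested ones, so p-values may measure technical spread. Deviations of same-numbered arrays from their group means correlated at -0.112 to 0.058 over 18 pairs, so the numbers were not taken to pair arrays. No 2 arrays were identical. Alternatives were quantile normalization, median centring, an offset of 50, no filter or a 60% filter, 1 variance prior, only the groups compared, a replicate block, the 18S rRNA signal as a covariate, and leaving out each array. No sequences or genome positions were used here.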

Additional observations from a re-analysis of the deposited data

Results flagged for a closer look

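The dim PER1 probe set PER1-b stood out because the lines differed in it. At 6 h all 3 infested Molly arrays lay below the mean log2 signal of uninfested Molly, and all 3 infested Newton arrays lay above that of uninfested Newton. In the fit without the filter on dim probe sets, the Molly response minus the Newton response was -3.34 on the log2 scale at 6 h (limma adjusted p = 0.0026). The values behind it lie mostly in the range of the tag controls, so its size is not a measured fold change, and the filtered fit did not test it.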

How the results depend on the processing

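For the lead probe sets, 27 values compare infested with uninfested sheaths or the lines' responses. Over 9 alternative settings, 230 of the results kept their sign and their side of the threshold, 5 came to pass it and 8 changed sign, all 8 among uncalled values. Values below are log2 changes, and the cause of a change was not tested. With quantile normalization CAT1 was -0.1 in Molly at 12 h, PER1 -0.39 in Newton at 24 h (called), the response difference -0.01 for PER1 at 6 h and -0.05 for CAT1 at 12 h, PER1 0 between 6 and 12 h in infested Molly, and CAT1 -0.01 between the infested lines at 6 h. With median centring the same values were -0.06, -0.39 (called), -0.01, -0.02 and 0, the last comparison keeping its sign. PER1 in Newton at 24 h was also called with the 60% filter (-0.38), and TaPrx1 in Newton at 24 h with only the groups compared (-0.38). With the 18S rRNA covariate CAT1 was 1.11 in Molly at 6 h (called) and 0.38 in Newton at 12 h, its response difference at 24 h was -0.08, and TaPrx1-d in Newton was 0.28, 0.04 and 0.24 at 6, 12 and 24 h.

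Leaving out 1 array at a time gave -0.18 to 0.38 for CAT1 in Molly at 12 h, 0.49 to 1.05 at 6 h and -0.18 to 0.16 in Newton at 12 h. For PER1 it gave -0.1 to 0.1 in Molly at 6 h, -0.07 to 0.04 at 12 h, -0.19 to 0.05 in Newton at 6 h and -0.48 to -0.28 at 24 h. For TaPrx1 in Newton at 12 h it gave -0.06 to 0.18, with -0.05 to 0.25 for TaPrx1-b and -0.01 to 0.32 for TaPrx1-c, which had -0.11 to 0.05 in Molly at 12 h. Response differences were -0.16 to 0.41 (CAT1, 12 h), -0.02 to 0.55 (CAT1, 24 h) and -0.06 to 0.19 (PER1, 6 h). Between the infested lines CAT1 was -0.13 to 0.33 at 6 h and -0.33 to 0.04 at 24 h. Between 6 and 12 h PER1 was -0.11 to 0.09 in infested Molly and -0.23 to 0.01 in infested Newton.

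In the fit with the replicate block CAT1 at 24 h was 1.56 in Molly (adjusted p = 0.0016) and 1.34 in Newton (adjusted p = 0.0038), and TaPrx1 in Molly was -0.67 at 6 h (adjusted p = 0.0012) and -0.72 at 24 h (adjusted p = 0.0015). The block changed 2 calls: it lost that of TaPrx1-d in Molly at 24 h and gained that of TaPrx1 between 6 and 12 h in infested Molly (0.51, adjusted p = 0.049), which was also called with quantile normalization, the 60% filter and only the groups compared.

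Counts over all probe sets moved more. With only the groups compared there were 4013 calls in Newton at 12 h (6822 over all groups), 2695 between uninfested lines (1247), 4042 between 12 and 24 h in infested Molly (6107), 232 between 6 and 12 h in infested Newton (917) and 691 between 12 and 24 h there (4288). With the 18S rRNA covariate there were 6836 in Molly at 12 h (12511 without it), 1865, 3543 and 5685 in Newton at 6, 12 and 24 h (5568, 6822 and 11169), and 4003 between 12 and 24 h in infested Molly (6107). Without 1 array the counts were 912 to 1515 between 6 and 12 h in infested Molly (1849), 502 to 1083 in infested Newton (917), 3703 to 6911 between 12 and 24 h in infested Molly (6107), 1906 to 6300 in infested Newton (4288), 4496 to 7792 in Newton at 12 h (6822) and 342 to 881 between uninfested lines (1247). Median centring shifted the Molly comparisons by -0.131, -0.118 and -0.11 and moved the share of rises among calls from 48.4%, 48.1% and 49.5% to 35.3%, 35.1% and 33.3%, that of the response differences from 45.5%, 45.6% and 48.2% to 35.1%, 35.4% and 35.8%, and that between uninfested lines from 40.3% to 50.4%.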
